A study of Homo sapiens with 12 samples.

Results

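The genes that encode RNA polymerase II and the factors that pause, release and escort it were followed in nascent RNA of human U2OS osteosarcoma cells. The set held 47 genes, taken by symbol from the 60583 genes in the deposited count tables: the 12 polymerase II subunits, NELF, DSIF with SPT6, P-TEFb, the proteins of the 7SK complex, the PAF complex, FACT with IWS1, TFIIS with elongin A, the super elongation complex, and the serine 2 kinases CDK12 and CDK13 with cyclin K and SETD2. Members were taken by name, with no threshold on a measured value. All 47 were found, and 45 passed the filter on low counts.

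The assay was TT-seq, in which newly made RNA carries a thiolated uridine, is cut into short pieces and is pulled out by a biotin tag. The 12 libraries formed 4 groups of 3: U2OS cells given siCtrl, U2OS cells given siINTS11, and U2OS-AsiSI cells given either siRNA. The U2OS-AsiSI cells carry AsiSI-ER, a restriction enzyme joined to an oestrogen receptor domain, and both of their groups received OHT, the ligand that sends it into the nucleus, for 1 h. Both lines were taken 48 h after transfection, so siRNA is compared within a line, while the line, the nuclease and OHT differ together between lines. INTS11 is the RNA-cutting subunit of Integrator, a complex that acts on polymerase II early in transcription. The labels do not say whether replicates came from separate cultures, so the p-values measure the spread between these libraries, which may be technical.

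As background, polymerase II often stops shortly after it starts, held there by NELF and DSIF. P-TEFb, the kinase CDK9 with cyclin T1 or T2, releases it, and the 7SK complex (7SK RNA with HEXIM1 or HEXIM2, LARP7 and MEPCE) keeps much of P-TEFb inactive. Released polymerase travels with SPT6, the PAF complex, FACT, TFIIS and the super elongation complex, and CDK12 and CDK13 phosphorylate its tail along the gene.

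Total counts ran from 20704611 to 38065726 per library. RUNX2, SPARC and COL1A1, genes of bone-forming cells, had 1929 to 15782 reads in each library, while the blood gene PTPRC had 2 to 7 and the liver gene ALB 0 to 3. EPCAM, an epithelial gene, had 108 to 201. INTS11 itself read 10.1, 8.88 and 10.1 CPM (counts scaled by the library's total and its TMM factor) in U2OS siCtrl, against 7.86, 7.07 and 7.19 in U2OS siINTS11, which did not overlap. Its change on the log2 scale was -0.42 (SE 0.09, edgeR adjusted p = 6.08e-05). In U2OS-AsiSI it read 9.64, 11 and 9.83 under siCtrl and 9.01, 9.33 and 9.49 under siINTS11. That difference, -0.13 (SE 0.08), did not pass the test (edgeR adjusted p = 0.172), so the nascent counts do not check the label in that line, and the libraries below are those labelled siINTS11. An siRNA acts on finished transcripts, and their level was not measured here.

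Across the set, 3 of the 4 genes for proteins of the 7SK complex had the largest changes. HEXIM1, HEXIM2 and MEPCE rose between 1.61- and 2.12-fold in both lines, and no other member rose by 1.5-fold or more or fell by as much in either line. The rest of the polymerase machinery moved little: log2 fold changes of the other 42 tested members lay between -0.44 and 0.30. Of members spanning up to 10 kb more rose than fell, and of those over 50 kb more fell than rose, in both lines, as among other protein-coding genes of those spans.

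In U2OS-AsiSI, 24 of 45 members passed the test (edgeR quasi-likelihood, Benjamini-Hochberg adjusted p under 0.05 over all 20441 genes tested), 11 higher and 13 lower, which is 53.3% of the members against 68.0% of all genes tested. In U2OS, 23 of 45 passed, 10 higher and 13 lower, or 51.1% against 66.9%. By direction, 24.4% of members rose in U2OS-AsiSI against 35.4% of all genes, and 28.9% fell against 32.6%. In U2OS 22.2% rose against 34.5%, and 28.9% fell against 32.4%. The share of members called was below that of all genes in both lines, so the count itself does not set the members apart. At 1.5-fold or more, 6.67% of members rose in each line against 19.2% and 18.9% of all genes, and none fell against 10.4% and 10.0%. The median log2 fold change of the members was 0.03 in U2OS-AsiSI and 0.02 in U2OS, the same as that of all genes tested.

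The split between rises and falls depends on scaling. On library totals alone, the median of all genes tested moved to 0.22 in both lines and the members' median moved with it, and the members then split into 31 higher and 3 lower in U2OS-AsiSI and 32 higher and 3 lower in U2OS. With only genes of a mean count of at least 50 the split was 20 and 8, and 14 and 9. Rises and falls below are therefore relative to the bulk of genes. Of the 9 members that fell in both lines, CCNT2, SUPT16H, AFF4 and CDK13 had values at or above 0 on library totals alone in both lines, and CCNK did in U2OS, while CDC73, RTF1, TCEA1 and SETD2 stayed below 0 in both.

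**Figure D1:**
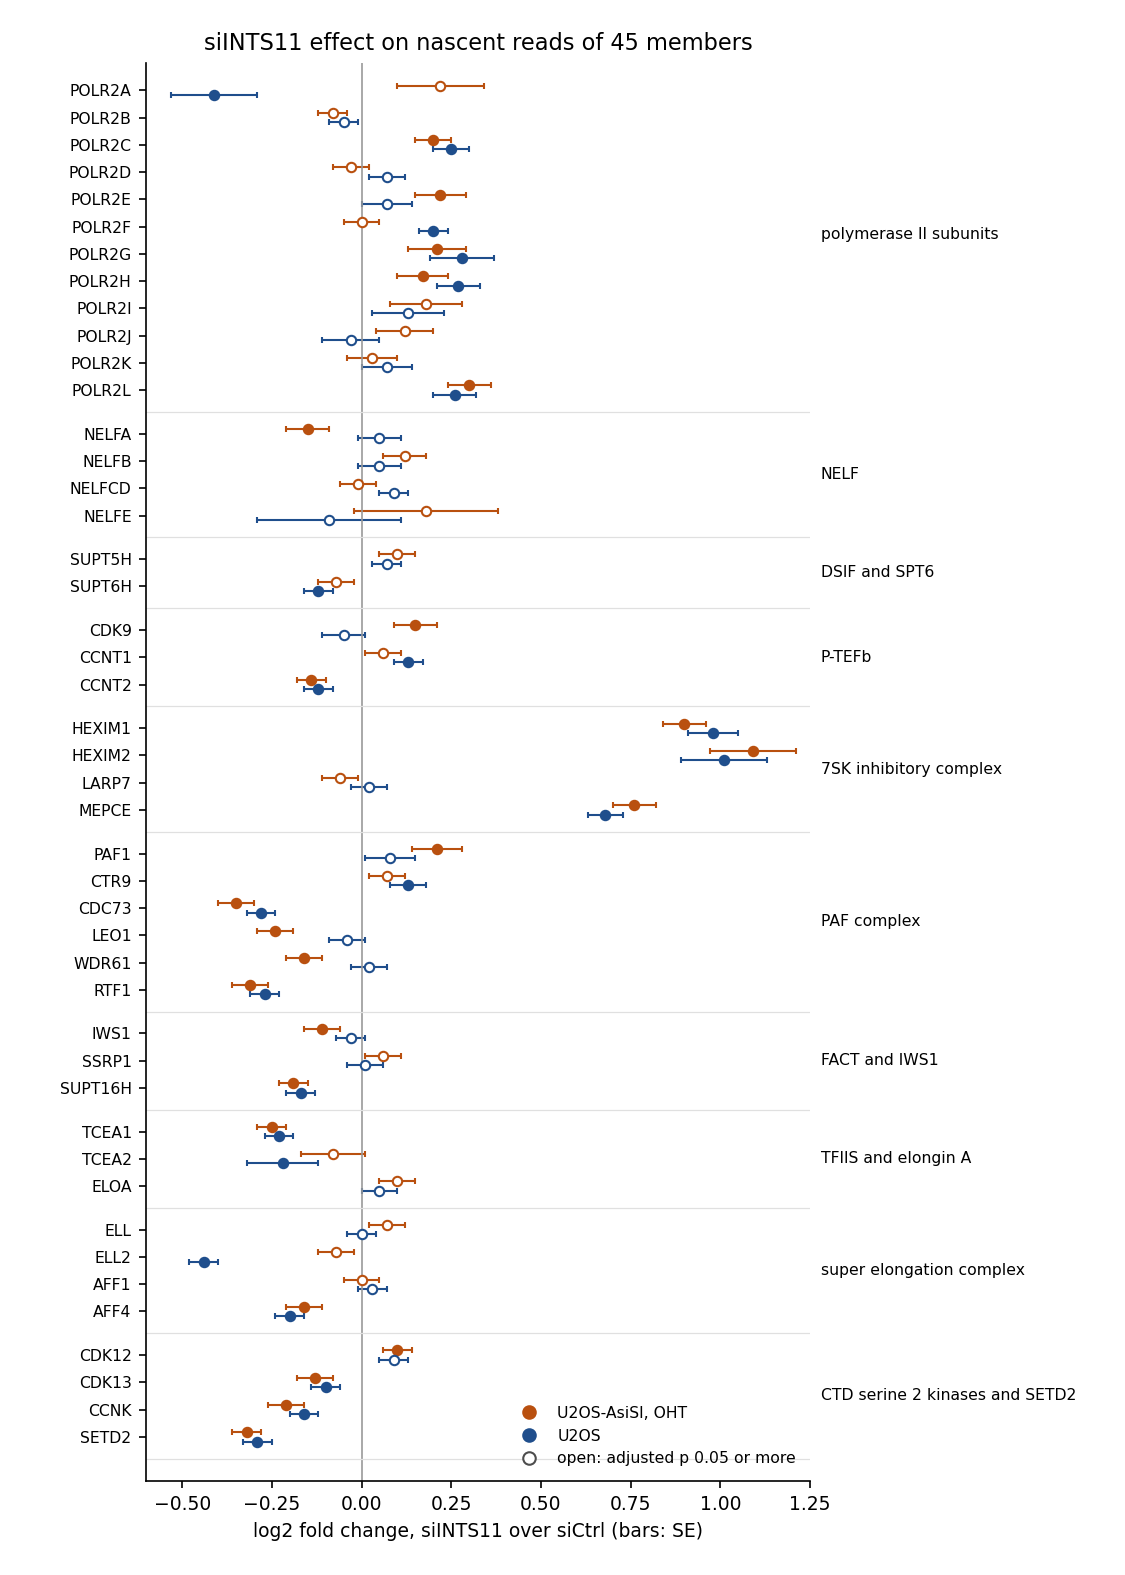
Log2 fold change of nascent reads, siINTS11 over siCtrl, for the 45 tested members grouped by role; orange points are U2OS-AsiSI with OHT, blue points are U2OS, bars are the SE, and filled points passed the test. HEXIM1, HEXIM2 and MEPCE lie between 0.68 and 1.09 in both lines and the other 42 members between -0.44 and 0.30; on library totals alone all points move up with the median of all genes, from 0.03 and 0.02 to 0.22, and some small negative values turn positive.

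The calls of both lines overlapped in part. Both lines called 7 members higher: POLR2C, POLR2G, POLR2H, POLR2L, HEXIM1, HEXIM2 and MEPCE. Both called 9 lower: CCNT2, CDC73, RTF1, SUPT16H, TCEA1, AFF4, CDK13, CCNK and SETD2. Neither line called 14, and no member was called in opposite directions. Of the 20121 genes tested in both lines, 28.5% were higher in both, against 15.6% of members, and 27.9% were lower in both, against 20%. Neither line called 21.3% of genes, against 31.1% of members, and 0.298% of genes were called in opposite directions. The overlap therefore does not set the members apart. Leaving out each library in turn, 16 of the 24 calls in U2OS-AsiSI and 19 of the 23 in U2OS held every time, and 9 and 12 also held under every other alternative in which the gene was fitted.

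HEXIM1, which binds 7SK RNA and blocks the kinase of P-TEFb, read 11.5, 11.5 and 11.1 CPM in U2OS siCtrl, against 23.6, 23.6 and 21.6 in U2OS siINTS11. In U2OS-AsiSI it read 13.6, 14.0 and 14.1 under siCtrl and 25.1, 27.3 and 25.2 under siINTS11. All 6 siINTS11 libraries lay above all 6 siCtrl libraries. The change on the log2 scale was 0.98 (SE 0.07, edgeR adjusted p = 9.27e-17) in U2OS and 0.90 (SE 0.06, edgeR adjusted p = 1.39e-13) in U2OS-AsiSI.

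HEXIM2, the paralog with the same function, is read more thinly, with 67 to 178 reads per library. It read 2.66, 2.46 and 2.54 CPM in U2OS siCtrl, against 5.38, 5.27 and 5.05 in U2OS siINTS11, and 2.27, 2.69 and 3.03 against 5.69, 5.2 and 5.92 in U2OS-AsiSI. The groups did not overlap in either line. The change on the log2 scale was 1.01 (SE 0.12, edgeR adjusted p = 6.3e-10) in U2OS and 1.09 (SE 0.12, edgeR adjusted p = 4.8e-09) in U2OS-AsiSI.

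MEPCE, the enzyme that caps 7SK RNA with a methyl group, was named after its values were seen. It read 27.1, 26.1 and 23.8 CPM in U2OS siCtrl, against 42.6, 42.7 and 40.9 in U2OS siINTS11. In U2OS-AsiSI it had 27.9, 30.1 and 30.5 CPM under siCtrl, then 47.3, 53.6 and 48.8 under siINTS11. Again every siINTS11 library exceeded every siCtrl library. The change on the log2 scale was 0.68 (SE 0.05, edgeR adjusted p = 5.65e-15) in U2OS and 0.76 (SE 0.06, edgeR adjusted p = 3.56e-13) in U2OS-AsiSI.

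LARP7, which protects the end of 7SK RNA, did not share the rise. It read 37.1, 38.3 and 38.1 CPM against 36.7, 41.4 and 39.7 in U2OS, and 41.4, 39.8 and 42.0 against 38.9, 41.4 and 37.4 in U2OS-AsiSI, siCtrl first. The groups overlapped in both lines, and the log2 fold changes of 0.02 (SE 0.05) and -0.06 (SE 0.05) did not pass the test (edgeR adjusted p = 0.729 and 0.299). On library totals alone LARP7 read 0.22 and 0.13, at or below the shifted median of all genes. The 7SK RNA gene RN7SK had 0 reads in all 12 libraries, and AL162581.1 covers 100% of it on its own strand. Reads of such overlapping genes cannot be assigned here, so the 0 sets no limit and the RNA of the complex was not measured.

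The rises of HEXIM1, HEXIM2 and MEPCE passed the test under every alternative in which they were fitted; HEXIM1 and MEPCE, at more than 0.1 reads per base, were not in the fit limited to genes below that density. Over these the log2 fold change of HEXIM1 ran from 0.96 to 1.18 in U2OS and from 0.86 to 1.09 in U2OS-AsiSI, that of HEXIM2 from 0.99 to 1.21 and from 0.99 to 1.27, and that of MEPCE from 0.64 to 0.88 and from 0.71 to 0.95, with the upper ends on library totals alone. The difference between the lines did not pass the test for any of them: it was -0.11 (SE 0.09, edgeR adjusted p = 0.532) for HEXIM1, 0.04 (SE 0.17, edgeR adjusted p = 0.925) for HEXIM2 and 0.04 (SE 0.08, edgeR adjusted p = 0.818) for MEPCE. Other short genes had rises of this size. Of 2149 protein-coding genes spanning up to 10 kb tested in U2OS-AsiSI, 7.31% had a log2 fold change at or above that of HEXIM1, 4.42% at or above that of HEXIM2 and 9.77% at or above that of MEPCE. In U2OS the shares of 2147 such genes were 5.59%, 5.03% and 11.3%.

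The promoter windows of these 4 genes are shown because 3 of them moved together and the fourth did not. MEPCE has 3 windows and LARP7 has 2, of which only the one nearest the start of the gene in the count tables is printed and described. They come from RefSeq (GRCh38.p14) and run from 250 bases before to 50 bases after the RefSeq start, 5′ to 3′ on the plus strand. Capitals mark matches, on either strand, to the motifs TATAA for the TATA box, CCAAT for NF-Y, GGGCGG for SP1, CACGTG for the E-box, TGACGTCA for CREB, TGACTCA for AP-1 and CCGGAAG for ETS factors, of which none contains another. A match on the other strand appears as its complement, so ATTGG stands for CCAAT and CCGCCC for GGGCGG. HEXIM1 is at chr17:45148225-45148524, HEXIM2 has windows at chr17:45159924-45160223 and chr17:45161625-45161924, MEPCE is at chr7:100428540-100428839 and LARP7 at chr4:112636893-112637192.
HEXIM1: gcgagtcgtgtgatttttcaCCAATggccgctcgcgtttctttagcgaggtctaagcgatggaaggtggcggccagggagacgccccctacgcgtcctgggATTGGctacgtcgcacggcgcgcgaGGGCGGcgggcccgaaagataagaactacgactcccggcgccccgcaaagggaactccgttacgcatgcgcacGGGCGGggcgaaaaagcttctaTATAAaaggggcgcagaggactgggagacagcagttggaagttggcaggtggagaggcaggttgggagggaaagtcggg
HEXIM2 first window: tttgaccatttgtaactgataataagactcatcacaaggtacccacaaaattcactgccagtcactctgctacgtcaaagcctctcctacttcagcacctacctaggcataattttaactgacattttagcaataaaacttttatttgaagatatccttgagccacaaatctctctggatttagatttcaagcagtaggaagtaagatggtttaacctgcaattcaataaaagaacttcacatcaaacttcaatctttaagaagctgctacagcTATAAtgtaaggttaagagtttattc
HEXIM2 second window: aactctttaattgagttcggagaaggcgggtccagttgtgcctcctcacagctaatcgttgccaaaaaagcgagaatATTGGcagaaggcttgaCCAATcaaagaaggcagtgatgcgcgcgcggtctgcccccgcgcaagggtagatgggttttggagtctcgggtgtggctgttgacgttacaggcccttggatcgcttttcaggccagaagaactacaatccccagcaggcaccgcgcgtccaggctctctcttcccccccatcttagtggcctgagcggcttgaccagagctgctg
MEPCE: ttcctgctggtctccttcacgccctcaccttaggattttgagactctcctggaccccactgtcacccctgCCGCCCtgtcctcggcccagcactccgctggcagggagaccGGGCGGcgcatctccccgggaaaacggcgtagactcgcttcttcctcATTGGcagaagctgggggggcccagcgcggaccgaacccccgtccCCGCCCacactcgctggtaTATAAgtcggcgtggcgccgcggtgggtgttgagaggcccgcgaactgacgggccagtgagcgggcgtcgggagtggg
LARP7: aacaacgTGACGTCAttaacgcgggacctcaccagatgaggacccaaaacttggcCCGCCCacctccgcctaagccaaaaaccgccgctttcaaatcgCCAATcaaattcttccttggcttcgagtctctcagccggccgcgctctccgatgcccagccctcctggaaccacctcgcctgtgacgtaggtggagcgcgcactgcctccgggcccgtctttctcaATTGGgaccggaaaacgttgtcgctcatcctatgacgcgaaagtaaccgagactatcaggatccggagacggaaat

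The printed windows of HEXIM1 and MEPCE each held TATAA at the distance usual for a TATA box, 29 and 28 bases before the start. The first HEXIM2 window held TATAA 25 bases after its start and the second held none, and the printed LARP7 window held none. TATAA between 20 and 40 bases before the start was present in 3 of the 39 members with a window (7.69%), POLR2A, HEXIM1 and MEPCE, against 3.91% of 35116 RefSeq windows. For these shares 1 window was read per member, the one nearest the start of the gene in the count tables (for HEXIM2 the first). The shares of all windows count every window of a gene. The nearest RefSeq start was farthest from the gene start for NELFA (32929 bases), SUPT5H (9426), RTF1 (8687) and TCEA2 (7136). For HEXIM2 the distance was 526 bases. On either strand, GGGCGG was in 76.9% of members against 45% of all windows, CCGGAAG in 30.8% against 10.3%, CCAAT in 25.6% against 34.6%, TATAA in 12.8% against 20.4%, CACGTG in 7.69% against 7.26%, TGACGTCA in 2.56% against 1.85% and TGACTCA in 0 of 39 against 4.95%. These are matches of letters and say nothing of whether a factor was bound. POLR2G, POLR2I, POLR2J, POLR2K, ELL2, TCEA1, CDC73 and WDR61 are named only.

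The genes beside the 3 that rose were then read, a choice made after the values were seen. Neighbours were limited to tested genes within 50 kb with a mean count of at least 50, without genes listed in several pieces. HEXIM1 (chr17:45148502-45152101) and HEXIM2 (chr17:45160700-45170040) lie in tandem on the plus strand, 8.6 kb apart. ACBD4, which ends 4.3 kb upstream of HEXIM1 on the same strand, had log2 fold changes of 0.41 (SE 0.12, edgeR adjusted p = 0.00282) in U2OS-AsiSI and 0.25 (SE 0.12, edgeR adjusted p = 0.0526) in U2OS. AC138150.1, which overlaps both HEXIM genes on the opposite strand, had 0.35 (SE 0.07) and 0.19 (SE 0.06), with edgeR adjusted p of 5.62e-05 and 0.00802. Of the other genes within these limits, AC008105.3 lies 20.9 kb past HEXIM2 on the opposite strand. It had larger values than either HEXIM gene, 1.40 (SE 0.13, edgeR adjusted p = 5.11e-11) and 1.60 (SE 0.14, edgeR adjusted p = 3.18e-13). AC142472.1, 32 bases upstream of HEXIM1 on the opposite strand, rose by 0.43 (edgeR adjusted p = 0.00286) and 0.34 (edgeR adjusted p = 0.0141). PLCD3, on the opposite strand upstream, had 0.17 and 0.21, and NMT1, farther upstream, fell by 0.15 and by 0.14.

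MEPCE (chr7:100428790-100434118) is followed on its own strand by AC092849.1, 1.1 kb past its end, and by PPP1R35-AS1, 2.1 kb past it. AC092849.1 had log2 fold changes of 1.46 (SE 0.14) in U2OS-AsiSI and 1.58 (SE 0.14) in U2OS, and PPP1R35-AS1 had 1.55 (SE 0.16) and 1.36 (SE 0.14). The edgeR adjusted p ran from 6.05e-13 to 6.78e-10 over these 4 values. PPP1R35, on the opposite strand at almost the same place as AC092849.1, had 0.13 (SE 0.12) and 0.05 (SE 0.13), with edgeR adjusted p of 0.329 and 0.723. ZCWPW1, which starts at the MEPCE promoter and runs the other way, rose by 0.81 (SE 0.14, edgeR adjusted p = 6.69e-06) and 0.80 (SE 0.11, edgeR adjusted p = 5.68e-08). PILRA, which ends 28.7 kb upstream on the strand of MEPCE, rose by 0.62 in each line (edgeR adjusted p = 4.76e-07 and 7.29e-08), and TSC22D4, 29.2 kb past it on the opposite strand, did not pass (0.12 and 0.07, edgeR adjusted p = 0.115 and 0.437). So the values just downstream of MEPCE on its strand were larger than that of MEPCE, and the opposite strand there did not pass the test. Whether reads past the end of MEPCE contribute to its neighbours was not tested.

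**Figure D2:**
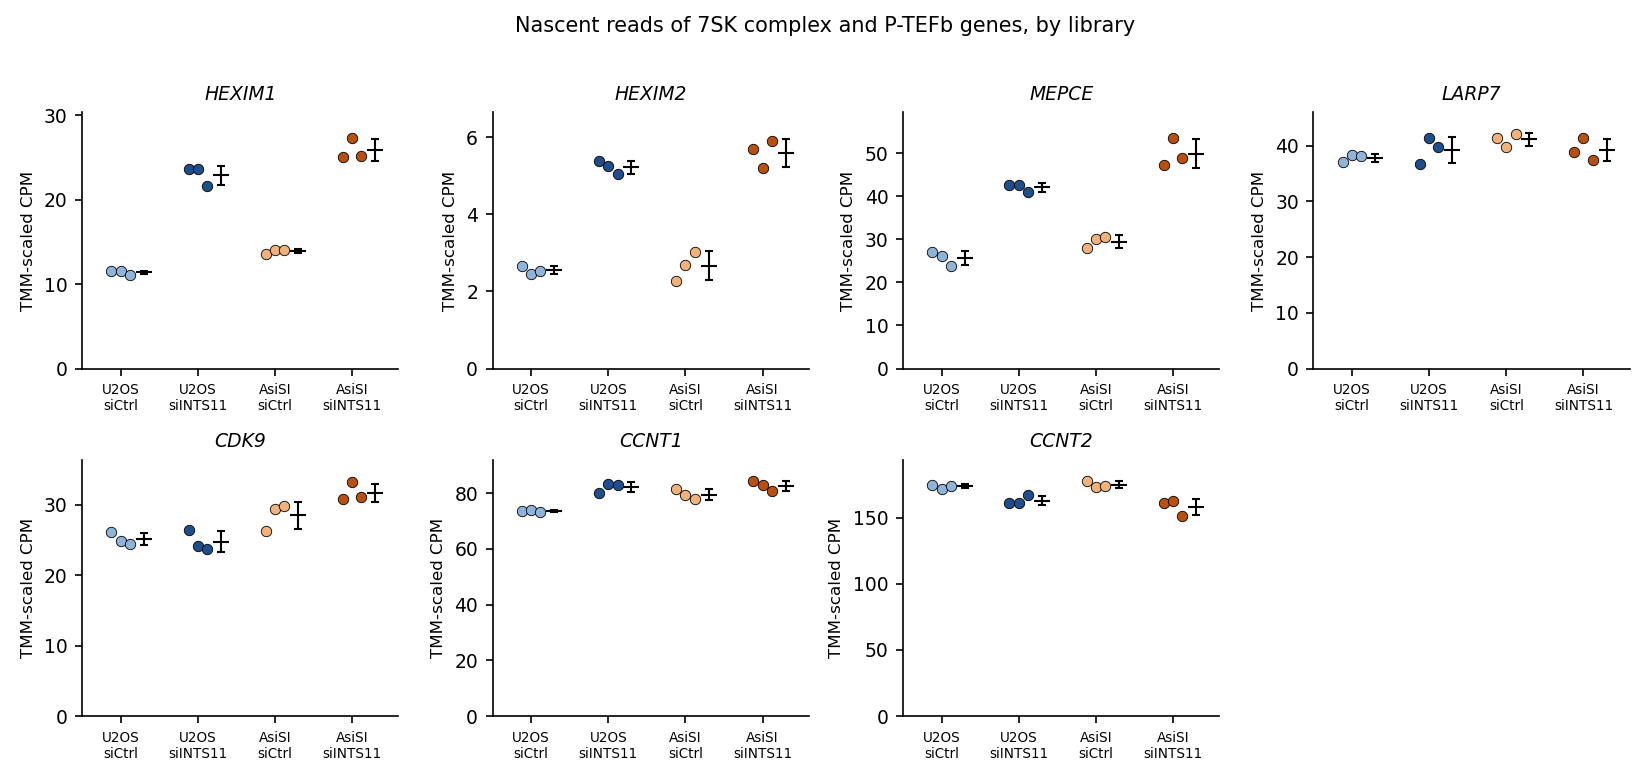
TMM-scaled CPM of the 7SK complex genes (top) and the P-TEFb genes (bottom) in each library; points are libraries, horizontal ticks and bars are the mean and SD of 3, and every axis starts at 0. For HEXIM1, HEXIM2 and MEPCE all siINTS11 points lie above all siCtrl points of the same line, while LARP7 overlaps in both lines and the P-TEFb genes differ by no more than 0.15 on the log2 scale; on library totals alone CCNT2 turns from -0.12 and -0.14 to 0.08 and 0.05.

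The genes of P-TEFb itself moved little. CDK9, its kinase, read 26.1, 24.9 and 24.5 CPM in U2OS siCtrl, against 26.5, 24.2 and 23.8 in U2OS siINTS11, which overlapped (log2 fold change -0.05, SE 0.06, edgeR adjusted p = 0.502; 0.15 on library totals alone). In U2OS-AsiSI it read 26.3, 29.4 and 29.9 against 30.9, 33.2 and 31.1. That rise of 0.15 (SE 0.06) passed the test (edgeR adjusted p = 0.0197) but not without siCtrl replicate 1, where it was 0.10 (edgeR adjusted p = 0.147), or without siINTS11 replicate 2, where it was 0.12 (edgeR adjusted p = 0.0901). Between the lines its effect differed by 0.17 (SE 0.08), which did not pass (edgeR adjusted p = 0.272).

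Cyclin T2 (CCNT2), a partner of CDK9, read 175, 172 and 174 CPM against 161, 161 and 167 in U2OS and 178, 173 and 174 against 161, 163 and 151 in U2OS-AsiSI. It fell by 0.12 (SE 0.04, edgeR adjusted p = 0.0063) and by 0.14 (SE 0.04, edgeR adjusted p = 0.00642) on the log2 scale with no overlap, and on library totals alone it read 0.08 and 0.05. Cyclin T1 (CCNT1), the other partner, had 0.13 (SE 0.04, edgeR adjusted p = 0.00538) in U2OS and 0.06 (SE 0.05, edgeR adjusted p = 0.251) in U2OS-AsiSI.

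Per kb of gene span, reads of HEXIM1, HEXIM2 and MEPCE rose against those of CDK9. Those of LARP7 overlapped in U2OS and were lower under siINTS11 in U2OS-AsiSI. This is given as a description chosen after the values were seen. The ratio of HEXIM1 to CDK9 was 0.644 ± 0.0168 (SD, n = 3) in U2OS siCtrl and 1.31 ± 0.0627 in U2OS siINTS11, and 0.694 ± 0.036 and 1.16 ± 0.0102 in U2OS-AsiSI. For MEPCE the ratio to CDK9 went from 0.979 ± 0.0399 to 1.63 ± 0.0787 and from 0.993 ± 0.0207 to 1.51 ± 0.0418. For HEXIM2 it went from 0.0556 ± 0.00131 to 0.115 ± 0.00411 and from 0.051 ± 0.00417 to 0.0971 ± 0.00991. For LARP7 it was 0.376 ± 0.0189 and 0.396 ± 0.0445 in U2OS, and 0.361 ± 0.0288 and 0.309 ± 0.00772 in U2OS-AsiSI. Such a ratio within a library does not depend on scaling.

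Of the 12 polymerase II subunits, 5 rose in U2OS-AsiSI and none fell, and in U2OS 5 rose and 1 fell. Of all genes, 35.4% and 34.5% rose and 32.6% and 32.4% fell. The 5 that rose in U2OS-AsiSI each span up to 10 kb. Of protein-coding genes of that span, 47.2% rose and 10.7% fell in U2OS-AsiSI, and 38.0% and 12.4% in U2OS. POLR2F, which rose in U2OS, spans 89.3 kb. POLR2L, a small subunit shared by all 3 nuclear polymerases, had the largest rise in U2OS-AsiSI: it read 20.1, 21.6 and 23.2 CPM under siCtrl and 25.0, 28.8 and 26.0 under siINTS11. In U2OS it read 17.1, 17 and 16.5 against 21.3, 20.2 and 20.1. With no overlap in either line, its change on the log2 scale was 0.30 (SE 0.06, edgeR adjusted p = 0.000148) and 0.26 (SE 0.06, edgeR adjusted p = 0.000415).

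Some members are singled out after their values were seen: POLR2C, POLR2E, POLR2G and POLR2H here, and CCNT1, RTF1, CTR9, WDR61, IWS1, TCEA2, AFF1, CCNK and CDK13 elsewhere. POLR2C, a core subunit, rose by 0.20 (edgeR adjusted p = 0.00135) and 0.25 (edgeR adjusted p = 6.31e-05). POLR2G, of the stalk, rose by 0.21 and 0.28 and POLR2H by 0.17 and 0.27, U2OS-AsiSI first. The POLR2G call in U2OS-AsiSI (edgeR adjusted p = 0.0329) held in 2 of 6 fits without a library and that of POLR2H (edgeR adjusted p = 0.0245) in 3 of 6. POLR2E rose by 0.22 in U2OS-AsiSI (edgeR adjusted p = 0.00635) and POLR2F by 0.20 in U2OS (edgeR adjusted p = 9.89e-05). POLR2D, POLR2I, POLR2J and POLR2K did not pass in either line, with values between -0.03 and 0.18.

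POLR2B, the second largest subunit, which forms the active site with POLR2A, had the lowest value of the group in U2OS-AsiSI. It read 186, 179 and 183 CPM against 177, 172 and 170, and 181, 180 and 181 against 179, 177 and 179 in U2OS. The libraries did not overlap, but the log2 fold changes of -0.08 (SE 0.04) and -0.05 (SE 0.04) did not pass the test (edgeR adjusted p = 0.129 and 0.273), and on library totals alone they read 0.12 and 0.15.

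POLR2A, the catalytic subunit with the tail that elongation factors read, was poor in reads, with 84 to 145 per library over a span of 30.3 kb. Its density in U2OS siCtrl was 0.124 ± 0.0075 CPM per kb (SD, n = 3), against a median of 2.76 over the other 11 subunits and 0.534 for the next lowest, POLR2F. No annotated gene overlaps POLR2A on its own strand in these tables, and the cause of its low count was not tested. It read 4.01, 3.70 and 3.56 CPM in U2OS siCtrl, against 2.99, 2.91 and 2.71 in U2OS siINTS11, a fall of 0.41 on the log2 scale (SE 0.12, edgeR adjusted p = 0.00341) that did not pass on library totals alone (-0.21, edgeR adjusted p = 0.133). In U2OS-AsiSI it read 3.6, 3.76 and 3.69 against 4.05, 3.70 and 4.97. These overlapped, and the value of 0.22 (SE 0.12) did not pass (edgeR adjusted p = 0.114); it did on library totals alone (0.41, edgeR adjusted p = 0.00656) and without siINTS11 replicate 2 (0.30, edgeR adjusted p = 0.0495).

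POLR2J has near copies, among which reads can be lost or shared. POLR2J itself had 281 to 370 reads per library, POLR2J2 had 0 in all 12 and POLR2J3 had 2 to 9. POLR2J4 read 3.13, 3.96 and 3.81 CPM against 1.90, 2.22 and 2.62 in U2OS, and 2.82, 2.85 and 2.38 against 1.22, 1.23 and 1.85 in U2OS-AsiSI. It fell by 0.73 (SE 0.14, edgeR adjusted p = 1.32e-05) and by 0.88 (SE 0.17, edgeR adjusted p = 3.68e-05) on the log2 scale, while POLR2J had -0.03 and 0.12 (edgeR adjusted p = 0.719 and 0.171). Other genes on the same strand cover 100% of POLR2J2, 98.6% of POLR2J3 and 85.9% of POLR2J4, while POLR2J has no such overlap. Reads of overlapping genes cannot be assigned here, so the values of this family are uncertain for both reasons.

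Among the pausing factors, 1 of the 4 NELF genes passed in U2OS-AsiSI and none in U2OS. Of all genes tested, 68.0% passed in U2OS-AsiSI and 66.9% in U2OS. NELFA, the subunit that contacts the polymerase, read 28.5, 28.5 and 26.1 CPM against 25.0, 25.1 and 24.8 in U2OS-AsiSI, a fall of 0.15 (SE 0.06, edgeR adjusted p = 0.0239; 0.04 on library totals alone). The call held in 3 of 6 fits without a library, with edgeR adjusted p up to 0.0996. In U2OS it read 25.9, 27.5 and 28.7 against 29.9, 27.7 and 29.4, which overlapped (0.05, SE 0.06, edgeR adjusted p = 0.397). NELFE, the RNA-binding subunit, had 28 to 50 reads per library, and its values of 0.18 (SE 0.20) and -0.09 (SE 0.20) did not pass (edgeR adjusted p = 0.432 and 0.696). At this depth a change of NELFE of the size seen in most members was not detectable.

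SUPT5H, the large subunit of DSIF, read 51.1, 53.2 and 55.6 CPM against 56.9, 58.9 and 55.1 in U2OS and 63.9, 60.4 and 58.1 against 65.5, 65.0 and 65.0 in U2OS-AsiSI. Its values of 0.07 (SE 0.04) and 0.10 (SE 0.05) did not pass (edgeR adjusted p = 0.191 and 0.0565), though in U2OS-AsiSI all siINTS11 libraries were higher; on library totals alone both passed. Without U2OS-AsiSI siCtrl replicate 1 the value there was 0.15 (edgeR adjusted p = 0.0188), and with the replicate number as a block it was 0.10 (edgeR adjusted p = 0.0348). SUPT6H, the histone chaperone SPT6, fell by 0.12 (SE 0.04, edgeR adjusted p = 0.00998) in U2OS with no overlap, at 78.1, 82.8 and 83.6 CPM against 77.1, 77.8 and 75.0. It did not pass without siCtrl replicate 2 or 3 (edgeR adjusted p = 0.0822 and 0.0769), and on library totals alone it read 0.08. In U2OS-AsiSI SUPT6H read 87.9, 88.9 and 87.5 against 84.4, 85.1 and 81.2 (-0.07, SE 0.05, edgeR adjusted p = 0.159; 0.12 on library totals alone).

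SUPT4H1, the small subunit of DSIF, and ELL3, of the super elongation complex, were too poor in reads to be tested. SUPT4H1 had 2 to 7 reads in each library, and 99.6% of its span is covered on its own strand by AC004687.2 and RNF43, which had 0 reads in all 12 libraries. ELL3 had 0 reads in all 12, and AC018512.1, with 16 to 34 reads, covers 99.7% of it on its own strand. Reads of such overlapping genes cannot be assigned from these tables, so neither count measures the transcription of its gene.

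The PAF complex, which travels with the polymerase and helps to mark histones, split by gene. In U2OS-AsiSI 4 of 6 members fell and 1 rose, and in U2OS 2 fell and 1 rose, while 32.6% and 32.4% of all genes fell. CDC73, its scaffold subunit, read 169, 170 and 174 CPM against 142, 138 and 151 in U2OS and 171, 162 and 164 against 135, 131 and 122 in U2OS-AsiSI. There was no overlap, and it fell by 0.28 (SE 0.04, edgeR adjusted p = 7.87e-08) and by 0.35 (SE 0.05, edgeR adjusted p = 1.24e-07) on the log2 scale. RTF1, which links the complex to histone H2B ubiquitination, fell by 0.27 (SE 0.04, edgeR adjusted p = 6.16e-07) and by 0.31 (SE 0.05, edgeR adjusted p = 1.26e-06), again without overlap; on library totals alone the fall in U2OS did not pass (-0.07, edgeR adjusted p = 0.155). PAF1, the subunit that names the complex, read 15.1, 15.3 and 16.6 CPM against 17.2, 18.8 and 18.0 in U2OS-AsiSI, a rise of 0.21 (SE 0.07, edgeR adjusted p = 0.00806), and 14.0, 13.3 and 13.4 against 15.1, 15.5 and 13.3 in U2OS (0.08, SE 0.07, edgeR adjusted p = 0.306). CTR9 rose in U2OS by 0.13 (edgeR adjusted p = 0.0188), with 0.07 (edgeR adjusted p = 0.205) in U2OS-AsiSI, and the difference between the lines did not pass (-0.09, edgeR adjusted p = 0.492). It did not pass in U2OS without siCtrl replicate 1 (edgeR adjusted p = 0.0632) or siINTS11 replicate 3 (edgeR adjusted p = 0.0746). WDR61, a repeat protein of the complex, fell by 0.16 in U2OS-AsiSI (edgeR adjusted p = 0.0114; 0.03 on library totals alone), a call that held in 4 of 6 fits without a library, and had 0.02 in U2OS.

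FACT, the chaperone that opens nucleosomes before the polymerase, also split. SUPT16H, its large subunit, read 90.9, 93.4 and 94.0 CPM against 83.9, 82.6 and 86.4 in U2OS and 99.4, 98.3 and 102 against 88.1, 88.0 and 85.7 in U2OS-AsiSI. It fell by 0.17 (SE 0.04, edgeR adjusted p = 0.000308) and by 0.19 (SE 0.04, edgeR adjusted p = 0.000479) with no overlap, and on library totals alone it read 0.03 and 0.00. SSRP1, its partner, had 0.01 (SE 0.05) and 0.06 (SE 0.05), which did not pass (edgeR adjusted p = 0.836 and 0.293). It read 44.8, 41.1 and 40.8 CPM against 44.2, 43.3 and 42.8 in U2OS and 47.2, 47.5 and 48.5 against 48.7, 51.5 and 48.6 in U2OS-AsiSI. IWS1, which binds SPT6, fell by 0.11 in U2OS-AsiSI (edgeR adjusted p = 0.0372), a call that held in 2 of 6 fits without a library and read 0.08 on library totals alone.

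TCEA1, the general form of TFIIS, which lets a backtracked polymerase cut its RNA and go on, read 133, 134 and 145 CPM against 118, 116 and 123 in U2OS. The U2OS-AsiSI values were 125, 124 and 120 against 104, 104 and 100. The groups did not overlap, and it fell by 0.23 (SE 0.04, edgeR adjusted p = 2.69e-06) and by 0.25 (SE 0.04, edgeR adjusted p = 9.49e-06) on the log2 scale. On library totals alone neither fall passed (-0.03, edgeR adjusted p = 0.381, and -0.06, edgeR adjusted p = 0.14). TCEA2, its paralog, fell by 0.22 in U2OS (SE 0.10, edgeR adjusted p = 0.0453) with overlap between groups, a call that held in 1 of 6 fits without a library and 2 of 8 other alternatives. ELOA, elongin A, read 41.7, 41.1 and 41.9 CPM against 43.6, 44.0 and 44.4 in U2OS and 40.8, 47.7 and 44.5 against 47.8, 48.5 and 46.0 in U2OS-AsiSI. Its values of 0.05 (SE 0.05) and 0.10 (SE 0.05) did not pass (edgeR adjusted p = 0.324 and 0.105), and without U2OS-AsiSI siCtrl replicate 2 the second was 0.16 (edgeR adjusted p = 0.0249). ELOA-AS1 covers all of ELOA on the opposite strand, and ELOA still had 1101 to 1524 reads per library.

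In the super elongation complex, which gathers P-TEFb with ELL proteins on AFF scaffolds, AFF4 fell in both lines. AFF4 read 312, 311 and 311 CPM against 276, 271 and 285 in U2OS and 306, 303 and 303 against 272, 283 and 257 in U2OS-AsiSI, with no overlap. The fall was 0.20 (SE 0.04, edgeR adjusted p = 3.94e-05) and 0.16 (SE 0.05, edgeR adjusted p = 0.0024), and on library totals alone the values were 0.00 and 0.03. AFF1, the other scaffold, had 0.03 and 0.00 (edgeR adjusted p = 0.557 and 0.942). ELL, which raises the rate of elongation, read 189, 182 and 191 CPM against 190, 190 and 191 in U2OS and 192, 204 and 192 against 202, 201 and 211 in U2OS-AsiSI. These overlapped, and its values of 0.00 (SE 0.04) and 0.07 (SE 0.05) did not pass (edgeR adjusted p = 0.918 and 0.175).

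Of the serine 2 kinase genes and SETD2, 3 of 4 fell in each line, while 32.6% and 32.4% of all genes fell. Of protein-coding genes over 100 kb, the span of CDK12, CDK13 and SETD2, 65.6% and 65.2% fell. Of those of 50 to 100 kb, the span of CCNK, 52.2% and 53.1% fell. SETD2, the methyltransferase that rides on the serine 2 mark and trimethylates histone H3 lysine 36, read 320, 323 and 339 CPM against 269, 269 and 279 in U2OS. The U2OS-AsiSI values were 296, 288 and 286 against 234, 233 and 225. It fell by 0.29 (SE 0.04, edgeR adjusted p = 2.94e-08) and by 0.32 (SE 0.04, edgeR adjusted p = 1.37e-07) without overlap, and also on library totals alone (-0.09 and -0.13).

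Cyclin K (CCNK), the partner of both kinases, fell by 0.16 (edgeR adjusted p = 0.00113) and by 0.21 (edgeR adjusted p = 0.00037), with 0.04 and -0.02 on library totals alone. CDK13 fell by 0.10 (edgeR adjusted p = 0.0213) and by 0.13 (edgeR adjusted p = 0.0112), with 0.10 and 0.06 on library totals alone, and its call held in 3 of 6 and 4 of 6 fits without a library. CDK12, the other serine 2 kinase, went the other way. It read 193, 200 and 198 CPM against 208, 215 and 207 in U2OS-AsiSI and 204, 197 and 208 against 217, 221 and 221 in U2OS, with no overlap. The value of 0.10 (SE 0.04) in U2OS-AsiSI passed (edgeR adjusted p = 0.0475) but in 0 of 6 fits without a library, where the edgeR adjusted p ran from 0.0521 to 0.171. In U2OS it was 0.09 (SE 0.04, edgeR adjusted p = 0.0537), which passed without siCtrl replicate 1 (0.10, edgeR adjusted p = 0.046) or replicate 3 (0.11, edgeR adjusted p = 0.0132).

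The effect of siINTS11 differed between the lines for 4 of 45 members (8.89%, against 3.87% of the 21521 genes tested), as tested by the siRNA-by-line interaction in all 12 libraries. A positive value means that the change was higher in U2OS-AsiSI: 2 members were higher (4.44% against 0.762%) and 2 lower (4.44% against 3.10%). ELL2, the ELL protein that the super elongation complex uses in many cells, read 247, 236 and 240 CPM in U2OS siCtrl, against 181, 174 and 190 in U2OS siINTS11. In U2OS-AsiSI it read 258, 237 and 248 against 245, 237 and 222. The groups were apart in U2OS, a fall of 0.44 (SE 0.04, edgeR adjusted p = 1.88e-12), and overlapped in U2OS-AsiSI (-0.07, SE 0.05, edgeR adjusted p = 0.168; 0.12 on library totals alone). The difference was 0.33 (SE 0.06, edgeR adjusted p = 0.00291), and it passed in all 12 fits without a library and in all 8 other alternatives.

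The other differences were less firm. POLR2A differed by 0.60 (SE 0.17, edgeR adjusted p = 0.0394), on the low counts given above, and passed in 3 of 12 fits without a library and 5 of 7 other alternatives. Without U2OS-AsiSI siINTS11 replicate 3 it was 0.47 (edgeR adjusted p = 0.166). LEO1, a PAF subunit that fell by 0.24 in U2OS-AsiSI (SE 0.05, edgeR adjusted p = 9.37e-05; -0.05, edgeR adjusted p = 0.423, on library totals alone) and had -0.04 in U2OS (SE 0.05, edgeR adjusted p = 0.456), differed by -0.23 (SE 0.06, edgeR adjusted p = 0.0294). POLR2F, a subunit shared by all 3 polymerases, had 0.00 in U2OS-AsiSI and 0.20 in U2OS and differed by -0.24 (SE 0.07, edgeR adjusted p = 0.0395). LEO1 passed in 2 of 12 fits without a library and 2 of 8 other alternatives, and POLR2F in 3 of 12 and 2 of 8. LEO1 read 45.8, 45.6 and 46.3 CPM against 45.1, 46.4 and 45.2 in U2OS and 50.7, 49.3 and 49.7 against 41.2, 42.5 and 43.0 in U2OS-AsiSI. POLR2F read 45.9, 48.6 and 48.5 against 57.0, 55.2 and 55.9 and then 54.5, 55.1 and 51.0 against 54.5, 49.1 and 55.7. ELL2, LEO1 and POLR2F were named after their values were seen. Line, nuclease and OHT cannot be told apart in these differences.

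**Figure D3:**
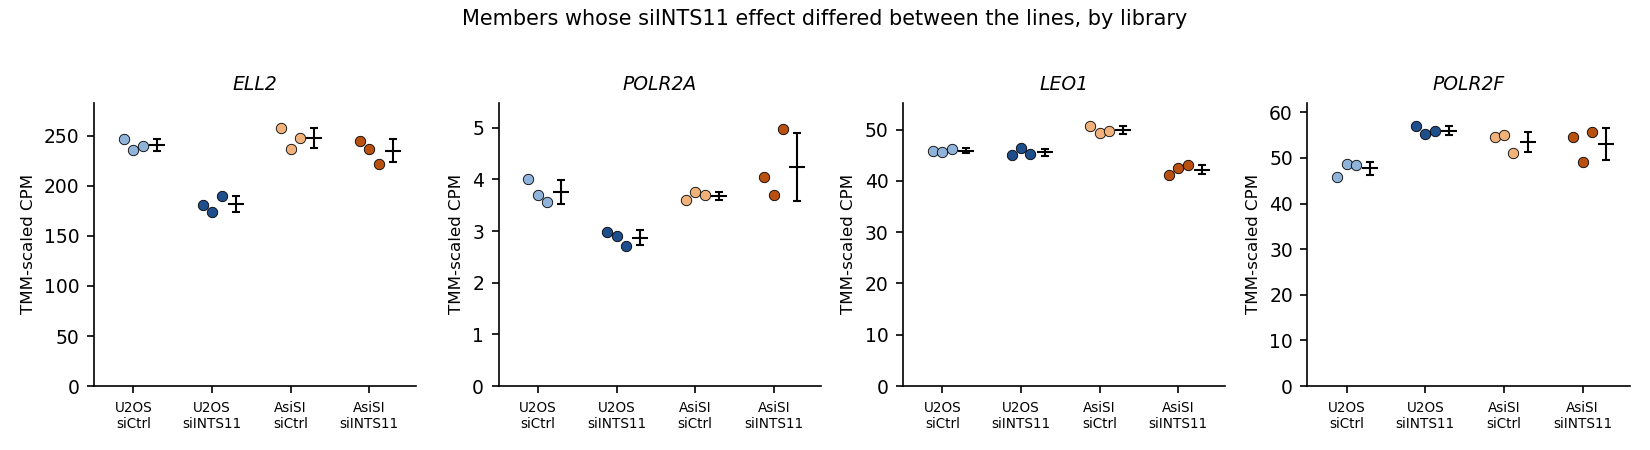
TMM-scaled CPM by library of the 4 members whose siINTS11 effect differed between the lines; points are libraries, ticks and bars the mean and SD of 3, and every axis starts at 0. ELL2 drops from 236 to 247 CPM to 174 to 190 CPM in U2OS and overlaps in U2OS-AsiSI, LEO1 is lower without overlap in U2OS-AsiSI and overlaps in U2OS, and POLR2A rests on 84 to 145 reads per library; on library totals alone LEO1 reads 0.16 in U2OS and -0.05 in U2OS-AsiSI.

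Members differed in length, from 1.5 kb for POLR2I to 206 kb for AFF1, and their changes followed it. Spearman's rho between log2 fold change and span was -0.70 over the 45 members in U2OS-AsiSI and -0.55 in U2OS, against -0.37 over 13774 and -0.34 over 13832 protein-coding genes. These are descriptions across genes that share the same 6 libraries, with no test, and they share controls with the line comparison below. Of the 15 members spanning up to 10 kb, 10 rose in U2OS-AsiSI and none fell, with a median of 0.20 (all protein-coding genes of that span: 47.2% rose, median 0.19). Without HEXIM1, HEXIM2 and MEPCE, 7 of 12 rose and the median was 0.18. In U2OS 7 of 15 rose, with a median of 0.13, against 38.0% and 0.11.

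Between 10 and 50 kb, none of 14 members rose in U2OS-AsiSI and 4 fell (28.6%), against 31.8% and 29.6% of protein-coding genes of that span, and the median was -0.05 against 0.01. In U2OS 1 of 14 rose (7.1%) and 5 fell (35.7%), against 33.1% and 28.1%, and both medians were 0.02.

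At the other end, 6 of the 11 members of 50 to 100 kb fell in U2OS-AsiSI (54.5% against 52.2% of all protein-coding genes of that span) and 3 of the 5 over 100 kb (60.0% against 65.6%). The medians were -0.11 and -0.13, against -0.16 and -0.29 for all. In U2OS the corresponding counts were 5 of 11 (45.5% against 53.1%) and 3 of 5 (60.0% against 65.2%), with medians of -0.05 and -0.10 against -0.14 and -0.25. The 5 longest members were AFF1, CDK13, SETD2, CDC73 and CDK12, of which CDC73, SETD2 and CDK13 fell.

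**Figure D4:**
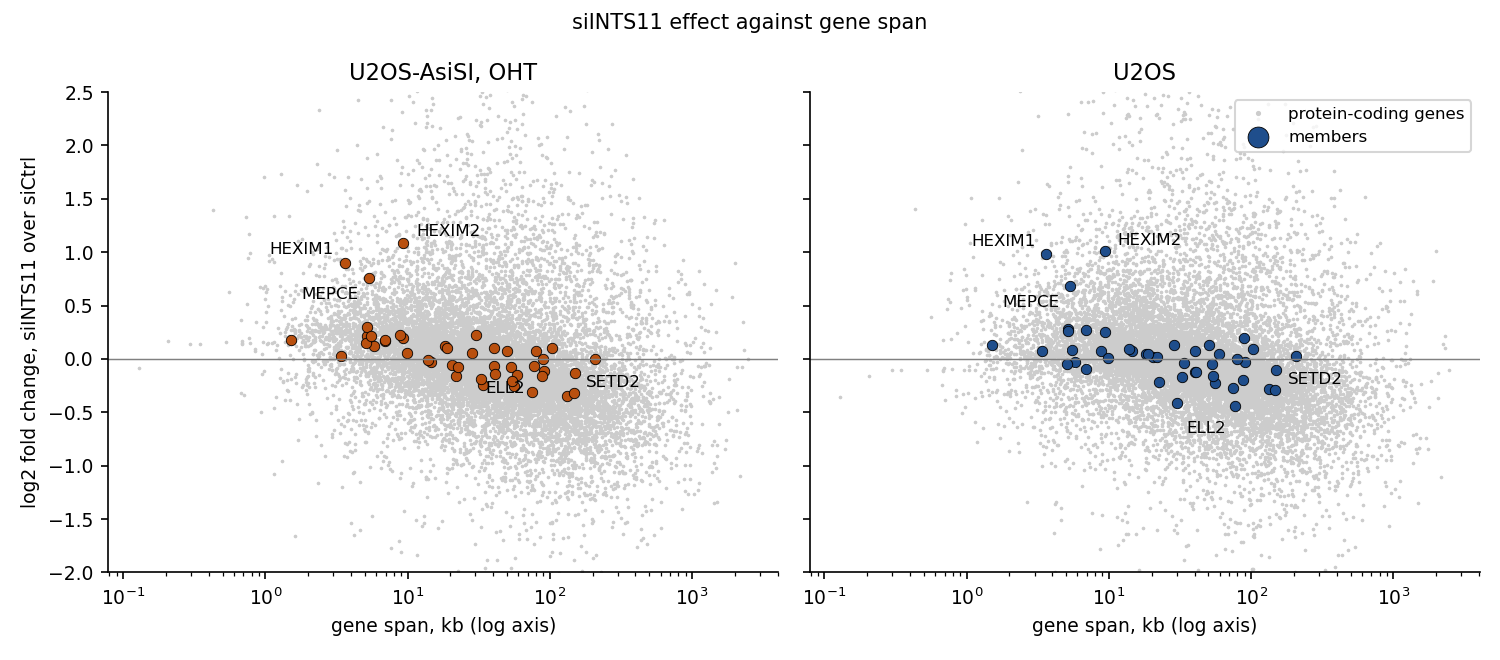
Log2 fold change, siINTS11 over siCtrl, against gene span in kb on a log axis for 13656 protein-coding genes (grey) and the 45 members (coloured), in U2OS-AsiSI with OHT (left) and U2OS (right); 56 and 55 genes lie outside the drawn range of -2 to 2.5. Members of up to 10 kb have medians of 0.20 and 0.13 and those over 100 kb of -0.13 and -0.10; on library totals alone the median of all genes moves up to 0.22 in both lines.

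Levels differed widely between members. In U2OS siCtrl the densest member was CDK9 at 4.92 ± 0.168 CPM per kb (SD, n = 3), followed by MEPCE at 4.82 ± 0.317, SSRP1 at 4.27 ± 0.226 and CCNT2 at 4.23 ± 0.0368. Neighbours among these 4 overlapped in their libraries, so their order is not resolved. HEXIM1 stood at 3.17 ± 0.0605 and HEXIM2 at 0.273 ± 0.0107, so the paralogs differed by more than their spread. NELFE (0.188 ± 0.0362), POLR2A (0.124 ± 0.0075) and SUPT4H1 (0.0174 ± 0.00808) were the lowest with any reads. Of the 46 neighbouring pairs in the order, 23 overlapped in their libraries. Subunits of a single complex were not read at equal density: in the PAF complex the mean ran from 0.751 for CTR9 to 2.45 for PAF1, and in NELF from 0.188 for NELFE to 3.81 for NELFCD.

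**Figure D5:**
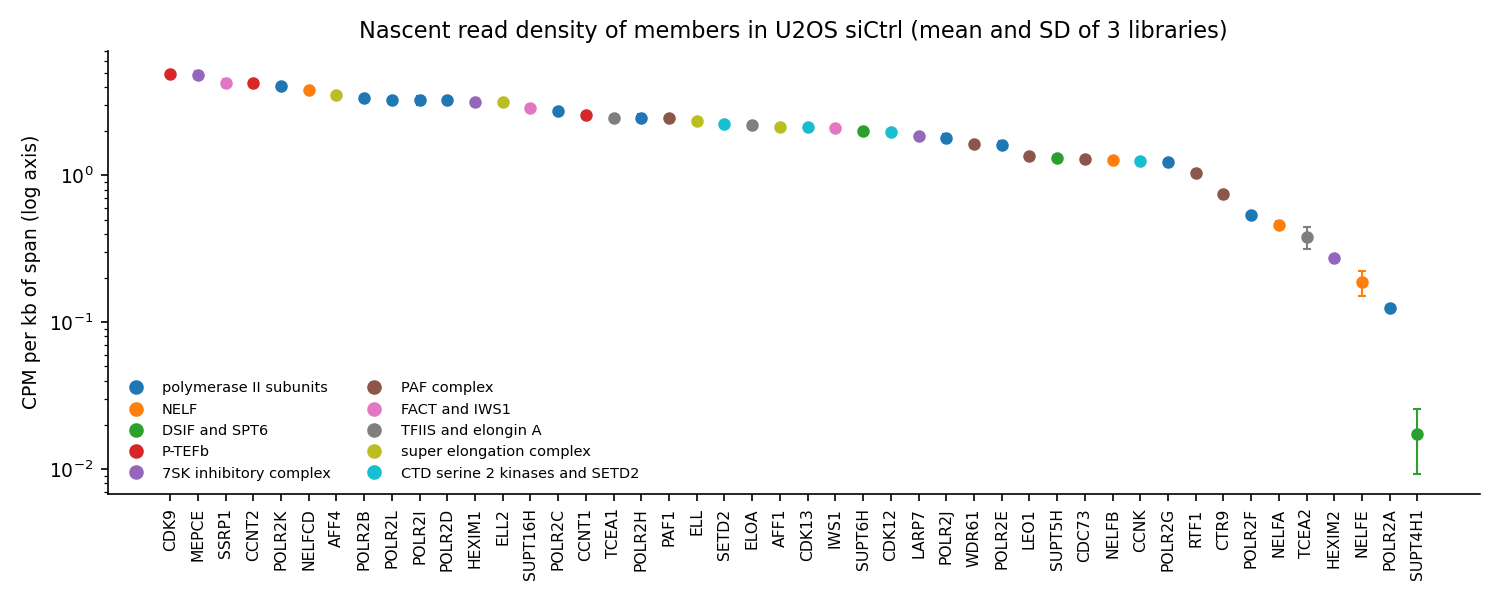
Nascent read density in U2OS siCtrl, in CPM per kb of gene span on a log axis, for the 46 members with any reads in order of level and coloured by role; points and bars are the mean and SD of 3 libraries. The density falls from 4.92 for CDK9 to 0.124 for POLR2A and 0.0174 for SUPT4H1, and ELL3, with 0 reads, is not drawn.

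Between the lines under siCtrl, 26 of 45 members passed (57.8% against 34.9% of the 19935 genes tested), 23 higher in U2OS-AsiSI (51.1% against 17.8%) and 3 lower (6.67% against 17.2%). The 3 lower were RTF1, TCEA1 and SETD2, and no difference reached 1.5-fold (0 of 45 higher against 1.99% of all genes, and 0 lower against 1.45%). The RTF1 call held in 3 of 6 fits without a library and was lost on library totals alone (-0.07, edgeR adjusted p = 0.241), with no count filter (edgeR adjusted p = 0.0556) and with the replicate block (edgeR adjusted p = 0.056). TCEA1 did not pass without U2OS siCtrl replicate 3 (-0.11, edgeR adjusted p = 0.0697). Of the 12 subunits, 9 were higher, of which POLR2G had the largest difference: 6.34, 6.62 and 6.21 CPM in U2OS and 8.48, 10.2 and 8.99 in U2OS-AsiSI (log2 0.53, SE 0.09, edgeR adjusted p = 3.85e-05). HEXIM1 was higher by 0.29 (SE 0.07, edgeR adjusted p = 0.00267), MEPCE by 0.20 (SE 0.06, edgeR adjusted p = 0.0091) and CDK9 by 0.19 (SE 0.06, edgeR adjusted p = 0.0161), while HEXIM2 had 0.07 (SE 0.14, edgeR adjusted p = 0.762). MEPCE did not pass without U2OS siCtrl replicate 3 (0.16, edgeR adjusted p = 0.0706), and CDK9 passed in 3 of 6 fits without a library. The count of members that were higher fell to 15 without U2OS-AsiSI siCtrl replicate 2 and to 14 without U2OS siCtrl replicate 3.

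Span moved with this difference too. Spearman's rho was -0.80 over 45 members and -0.48 over 13633 protein-coding genes, and of the 15 members up to 10 kb 12 were higher (80.0%) against 41.5% of such genes, with medians of 0.21 and 0.20. The median over all members was 0.12, against 0.01 over all genes tested. The siCtrl libraries are the same ones that the siINTS11 comparisons use, and line, nuclease and OHT cannot be told apart here.

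Other genes of the transcription machinery were read from 4 lists. The counts of every list stand beside the shares of all genes tested. These were 35.4% higher and 32.6% lower in U2OS-AsiSI, and 34.5% higher and 32.4% lower in U2OS. Of the general transcription factors and TFIIH, 3 of 17 tested genes rose and 4 fell in U2OS-AsiSI, and 4 rose and 6 fell in U2OS, with medians of -0.06 and -0.01. GTF2H5, a small TFIIH subunit, rose by 0.27 (edgeR adjusted p = 0.000655) and 0.44 (edgeR adjusted p = 6.23e-08), and GTF2F2, of TFIIF, by 0.15 (edgeR adjusted p = 0.00482) and 0.33 (edgeR adjusted p = 5.29e-09). MNAT1, which assembles the kinase of TFIIH, fell by 0.30 (edgeR adjusted p = 8.86e-07) and by 0.24 (edgeR adjusted p = 3.15e-06), and GTF2E2, of TFIIE, by 0.26 (edgeR adjusted p = 1.25e-05) and by 0.14 (edgeR adjusted p = 0.00141).

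Of other elongation factors and factors that act on the polymerase tail, 5 of 29 rose and 11 fell in each line, with medians of -0.04 and -0.07. PHF3, which binds the phosphorylated tail, fell by 0.50 (edgeR adjusted p = 2.93e-11) and by 0.45 (edgeR adjusted p = 4.43e-13), and RPAP2, a tail phosphatase, by 0.41 (edgeR adjusted p = 6.03e-09) and by 0.35 (edgeR adjusted p = 1.16e-09). RECQL5, a helicase that slows the polymerase, rose by 0.38 (edgeR adjusted p = 1.83e-07) and 0.32 (edgeR adjusted p = 1.36e-07). PPP1R10, a targeting subunit of a phosphatase of the transcription cycle, had 0.68 (edgeR adjusted p = 8.72e-07) in U2OS-AsiSI and -0.08 (edgeR adjusted p = 0.515) in U2OS, a difference of 0.73 in the interaction test (SE 0.14, edgeR adjusted p = 0.00378).

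Of the subunits particular to polymerases I and III, 4 of 15 rose and 4 fell in U2OS-AsiSI and 8 rose and 1 fell in U2OS, with medians of 0.02 and 0.14. POLR3G, a subunit of polymerase III, rose by 0.27 (edgeR adjusted p = 0.000156) and 0.62 (edgeR adjusted p = 1.11e-12). POLR1D, shared by polymerases I and III, fell by 0.49 (edgeR adjusted p = 5.26e-10) and by 0.42 (edgeR adjusted p = 1.57e-10). POLR3GL, the paralog of POLR3G, had -0.64 (edgeR adjusted p = 0.0137) and -0.46 (edgeR adjusted p = 0.0845) on 17 to 24 reads in each siINTS11 library. AC243547.3 covers 92.7% of POLR3GL on its own strand, and reads of such overlapping genes cannot be assigned here. Of the 10 assembly factors of polymerase II, 3 rose and 3 fell in U2OS-AsiSI and 4 rose and 3 fell in U2OS. PIH1D1 rose by 0.39 (edgeR adjusted p = 1.42e-05) and 0.37 (edgeR adjusted p = 3.1e-05) and RUVBL1 by 0.23 (edgeR adjusted p = 3.66e-05) and 0.16 (edgeR adjusted p = 0.000757). URI1 fell by 0.28 (edgeR adjusted p = 6.02e-06) and by 0.20 (edgeR adjusted p = 5.14e-05), and GPN1 by 0.18 (edgeR adjusted p = 0.00236) and by 0.13 (edgeR adjusted p = 0.0155).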

How the data were processed

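The authors deposited raw counts, read per gene over the whole gene span. Each count table used here held 1 U2OS and 1 U2OS-AsiSI library, and all 12 libraries were used. Per the submitters' processing notes, Trimmomatic 0.36, STAR 2.7, deepTools and featureCounts were used with hg38. The strand setting is not given in the sources used here, and no molecular identifiers are recorded, so PCR copies cannot be told from separate fragments. Genes on the opposite strand cover 100% of SUPT4H1 and ELOA, 85.7% of LEO1, 65.3% of IWS1 and 64.7% of CCNK. They also cover 61.7% of POLR2I, 47.9% of POLR2L and 47.3% of HEXIM1. Of the 2 covered fully, ELOA still had 1101 to 1524 reads per library. SUPT4H1, which is also covered on its own strand, had 2 to 7. Whether such genes affect the counts of these members was not tested.

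Libraries were grouped by the labels' line and siRNA. Genes were kept by filterByExpr, scaled by TMM and tested with edgeR 4.0.16 (glmQLFit, robust, and glmQLFTest, two-sided, in R 4.3.3). The Benjamini-Hochberg adjustment covered all genes tested, with a threshold of 0.05, and 1.5-fold was used as a size limit. The interaction of siRNA and line tested the difference between lines. The code was tested on simulated data. Levels are CPM on TMM-scaled totals, also divided by gene span in kb. Exact permutation of 3 libraries against 3 cannot go below p = 0.1 and was not used.

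The members and lists were chosen with earlier results of these data known. Full values are given for the members with the largest change in each direction in U2OS-AsiSI within each role group, and for HEXIM1, POLR2A, SUPT5H, CDK9, CDK12 and SETD2. In each list of other genes up to 2 with the smallest adjusted p in each direction are named; 1 gene that this rule names is not reported here. Alternatives in edgeR were other scalings (with median-of-ratios size factors or totals alone), other count filters, a replicate block and thinned libraries. Others were a limit on read density, leaving out each library, and the Wald test of DESeq2 1.42.0. Replicate numbers were not taken as pairs: deviations of same-numbered siCtrl and siINTS11 libraries correlated between -0.04 and 0.14 over 6 pairs.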

Additional observations from a re-analysis of the deposited data

Results flagged for a closer look

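The effect of siINTS11 on 4 members differed between U2OS-AsiSI and U2OS by the interaction test of edgeR. ELL2 differed by 0.33 on the log2 scale (edgeR adjusted p = 0.00291): all 3 siINTS11 libraries lay below the siCtrl libraries in U2OS, and the groups overlapped in U2OS-AsiSI. POLR2A differed by 0.60 (edgeR adjusted p = 0.0394) on 84 to 145 reads per library. LEO1 differed by -0.23 (edgeR adjusted p = 0.0294) and POLR2F by -0.24 (edgeR adjusted p = 0.0395).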

How the results depend on the processing

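Calls of single members mostly kept their direction, but small values sit near 0 and turn with scaling; beyond the alternatives' own construction the cause was not tested. Members called in U2OS-AsiSI numbered 31 higher and 3 lower on library totals alone, 20 and 8 in genes with a mean count of 50 or more, and 6 higher with DESeq2; in U2OS they numbered 32 and 3 on library totals alone. For the difference between the lines, 832 genes passed, against 447 with median-of-ratios size factors, 1281 with the replicate block, 423 with DESeq2 and 286 to 946 without a library. Members lower there numbered 0 with median-of-ratios factors, library totals, no filter, a mean count of at least 50, DESeq2 and genes under 0.1 reads per base, and 0 to 3 without a library; members higher numbered 1 with DESeq2 and with thinned libraries, and 1 to 2 without a library. Under siCtrl, members higher in U2OS-AsiSI numbered 15 with DESeq2 and with genes under 0.1 reads per base, and 14 to 19 without a library. With the replicate block, 12 members were higher and 14 lower in U2OS-AsiSI and 11 and 12 in U2OS.

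On library totals alone, values in U2OS-AsiSI turned to 0.12 for POLR2B, SUPT6H and ELL2, 0.16 for POLR2D, 0.19 for POLR2F and AFF1, 0.04 for NELFA, 0.18 for NELFCD, 0.05 for CCNT2, 0.13 for LARP7, 0.03 for WDR61 and AFF4, 0.08 for IWS1, 0.00 for SUPT16H, 0.11 for TCEA2 and 0.06 for CDK13. In U2OS they turned to 0.15 for POLR2B and CDK9, 0.16 for POLR2J and LEO1, 0.11 for NELFE, 0.08 for SUPT6H and CCNT2, 0.17 for IWS1, 0.03 for SUPT16H, 0.20 for ELL, 0.00 for AFF4, 0.10 for CDK13 and 0.04 for CCNK. With a mean count of at least 50, POLR2D read 0.02, POLR2F 0.05, NELFCD 0.04 and AFF1 0.05 in U2OS-AsiSI, and POLR2J 0.01, LEO1 0.00, IWS1 0.02 and ELL 0.04 in U2OS. In thinned libraries POLR2D read 0.00 in U2OS-AsiSI, LARP7 -0.01, WDR61 0.00 and ELL 0.01 in U2OS, and the line difference read -0.10 for HEXIM2 and -0.01 for MEPCE. With genes under 0.1 reads per base POLR2F and AFF1 read 0.02 in U2OS-AsiSI and ELL 0.01 in U2OS. SSRP1 in U2OS read 0.00 with median-of-ratios factors and with DESeq2. Without a library in turn, values crossed 0 for AFF1 (-0.04 to 0.02), NELFE (-0.02 to 0.35), POLR2F (-0.04 to 0.04) and POLR2K (-0.03 to 0.09) in U2OS-AsiSI, and for ELL (-0.01 to 0.02), IWS1 (-0.05 to 0.01), LARP7 (-0.02 to 0.07), NELFE (-0.25 to 0.02), POLR2J (-0.07 to 0.02), SSRP1 (0.00 to 0.06) and WDR61 (0.00 to 0.04) in U2OS. HEXIM2 ranged from -0.06 to 0.14 in the line difference and from -0.03 to 0.16 between lines under siCtrl.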
